A study of Mus musculus with 34 samples.

Results

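Lungs of mice that had received the carbon nanotube material NRCWE-043 were compared with lungs of mice that had received either of 2 other materials, NRCWE-044 and NRCWE-045. The comparison used 29 of the 34 arrays of the study: all 10 arrays of NRCWE-043 (5 at 18 µg, 5 at 54 µg) against all 19 arrays of NRCWE-044 (6 at 18 µg, 5 at 54 µg) and NRCWE-045 (3 at 18 µg, 5 at 54 µg). Arrays were assigned by the material and dose in their labels, and no measured value was used. The 5 remaining arrays, with Control as their treatment label, entered no test here and are given as a background level. The title of 1 of them (Control replicate 3) names NRCWE-043 at a dose of 0 µg, so its labels disagree on the material, and it is counted among the Control lungs throughout.

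All mice were female C57BL/6, 5 to 7 weeks old, and the exposed ones had a single intratracheal instillation of the material in 40 µl, with lungs collected at day 28. Tissue was snap frozen at once and RNA was extracted from sections taken at random. Mice lived under a 12 hour light/dark cycle, and the labels give neither the hour of collection nor what the Control mice received. Each array compared lung RNA (Cy5) with a reference RNA from 11 mouse cell lines (Cy3), so a level below is a log2 ratio of lung to reference RNA, and a difference is a level in NRCWE-043 lungs minus that in the others, adjusted for dose. The codes name the materials without describing them, and the labels do not tie arrays to separate mice, so p-values measure the spread between these arrays, which may be technical in part. In a whole-lung sample, fewer cells of a type and less RNA per cell cannot be told apart.

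The mammalian circadian clock is a loop of transcription factors present in nearly every lung cell type. Bmal1 (symbol Arntl here) pairs with Clock or Npas2 on E-boxes and drives the Per and Cry repressors, the nuclear receptors Nr1d1 and Nr1d2, and the output factors Dbp, Tef and Hlf. Nr1d1 and Nr1d2 repress Arntl and Nfil3 through ROR elements, and Dbp, Tef and Hlf drive, while Nfil3 represses, genes with a D-box, so Arntl and Nfil3 peak at about the opposite time of day from Dbp and the Per genes.

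The 250 bases before the annotated start were searched on both strands for an E-box (CACGTG), a D-box (TTATGTAA) and the core of a ROR element (TAGGTCA), none of which overlapped another in the stretches shown. Of 13 genes looked up, 10 were in the RefSeq promoter table (GRCm38.p6), and 4 of them held a motif. These stretches are shown because their genes moved with the clock in the results that follow, with the motif in capitals. They are Nfil3 (chr13:52981040-52981101, minus strand), Per3 (chr4:151044766-151044915, minus strand), Tef (chr15:81802496-81802601, plus strand) and Tspan4 (chr7:141476279-141476379, plus strand).
Nfil3, ROR element core on the other strand: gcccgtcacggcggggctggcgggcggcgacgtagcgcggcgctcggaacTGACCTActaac
Per3, 2 D-boxes: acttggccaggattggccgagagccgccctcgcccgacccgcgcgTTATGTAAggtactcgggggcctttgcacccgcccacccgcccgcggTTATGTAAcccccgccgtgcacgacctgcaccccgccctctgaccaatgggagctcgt
Tef, E-box: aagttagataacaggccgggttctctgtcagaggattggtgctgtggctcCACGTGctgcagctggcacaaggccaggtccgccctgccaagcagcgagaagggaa
Tspan4, E-box: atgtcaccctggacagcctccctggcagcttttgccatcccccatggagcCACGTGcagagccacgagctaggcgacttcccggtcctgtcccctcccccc
Of all 32851 such windows, 6.02% held an E-box, 0.819% the D-box and 2.23% the ROR core. A match describes these letters and is not a binding site.

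On exposed arrays 52.2 to 69.4% of probes stood clearly over background in Cy5. The arrays lay on 6 slides, told apart by their barcodes, and 5 slides held NRCWE-043 beside other exposed arrays. What else differed between slides was not tested. Some arrays of the other materials stood apart in genes of neighbouring tissues. Liver genes (mean level of 13) reached at most 0.61 in NRCWE-043 lungs, against 4.31 in 1 NRCWE-045 lung at 18 µg (replicate 2), 1.76 or less in the other exposed lungs and 0.68 or less in Control lungs. Fat cell genes (mean level of 14) reached 2.07 in NRCWE-043 lungs, against 4.86 in 1 NRCWE-044 lung at 54 µg (replicate 1) and 2.35 in Control lungs. A further 3 NRCWE-045 lungs were above 2.35, at 3.90 (54 µg replicate 4), 3.67 (18 µg replicate 1) and 2.81 (18 µg replicate 2). The median lung had 1.04 in NRCWE-043 and 0.83 in the other materials.

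Of 29315 units tested (17154 named genes and 12161 units without a gene name), 207 differed at an adjusted p under 0.05 (limma, Benjamini-Hochberg over all units), which is 0.706% of those tested. In NRCWE-043 lungs 56 were higher (0.191%) and 151 lower (0.515%). Named genes made up 51 of the higher units and 65 of the lower ones. Without the Cy3 channel (Cy5 alone, quantile-normalized) 44 were higher and 46 lower. That setting changed both the channel and the normalization, and which of them removed the excess of lower units was not tested. With slide as a block 85 were higher and 194 lower (279, 0.952%), and 162 of these were among the 207. Without the lung with the highest liver genes 37 were higher and 105 lower, without the one with the highest fat genes alone 39 and 110, and with scores for fat, cardiac muscle and liver in the model 21 and 51. At an unadjusted p under 0.05, 929 units were higher (3.17%) and 1964 lower (6.7%). The median absolute difference of the 207 was 0.44 on the log2 scale, and 10 of them exceeded a 2-fold difference. The largest lower differences among the 207, -1.61 and -1.50, were those of units without a gene name.

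Spon2, a secreted matrix protein that can bind microbial surfaces, had the lowest p of all named genes and the largest difference. Its level was -0.99, -0.46 and 0.84 (lowest, median and highest) in NRCWE-043 lungs, against -3.34, -2.48 and -0.40 in NRCWE-044 and NRCWE-045 lungs and -2.55, -2.23 and -1.36 in Control lungs. All NRCWE-043 lungs lay above every Control lung, and 5 of 10 lay above every lung of the other materials, among which a single NRCWE-045 lung at 18 µg was high. The difference was 2.13 ± 0.25 (SE), with an adjusted p of 4.31e-05 (limma). It was 2.10 ± 0.23 against NRCWE-044 alone and 2.16 ± 0.33 against NRCWE-045 alone, 2 values that share the NRCWE-043 arrays, and 1.98 at 18 µg and 2.28 at 54 µg.

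Ccnjl, a relative of the cyclins, was the next among the higher genes. It had -1.62, -1.07 and -0.75 in NRCWE-043 lungs, against -2.64, -2.08 and -1.40 in the other exposed lungs, and averaged -1.88 ± 0.29 in Control lungs (SD, n = 5). Its difference was 0.87 ± 0.12 (SE; adjusted p = 0.00023, limma), and 7 of 10 NRCWE-043 lungs exceeded every lung of the other materials.

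Genes of the extracellular matrix were among the 12 higher genes with the lowest p. Loxl1, which cross-links elastin, had -0.67, 0.25 and 0.66 in NRCWE-043 lungs, against -1.12, -0.42 and 0.17 in the other exposed lungs. In 7 of 10 NRCWE-043 lungs it exceeded every lung of the other materials, while 1 NRCWE-043 lung at 54 µg was as low as the lower ones of those. Its difference was 0.66 ± 0.11 (SE; adjusted p = 0.0045, limma), and within slides it ran from -0.02 to 1.104. Fbn1, the fibrillin of elastic microfibrils, differed by 0.36 ± 0.07 (adjusted p = 0.014) and was higher in all 5 slides, by 0.30 to 0.47. Col5a3, a chain of collagen V, differed by 0.57 ± 0.11 (adjusted p = 0.013).

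The other higher genes of this rank had differences of 0.37 to 0.58. They were Glipr2, a Golgi-associated membrane protein (0.57), Ahcyl2, a regulator of ion transport (0.49), the cell adhesion protein Clmp (0.55), Rhoj, a small GTPase of endothelial cells (0.37), Mthfd1, an enzyme of cytosolic folate metabolism (0.39), and the forkhead factor Foxs1 (0.58). A second probe of Ahcyl2 gave 0.40, one of Clmp 0.52 and one of Loxl1 0.52. With Cy5 alone Glipr2 and Mthfd1 no longer passed (adjusted p = 0.087 for both), and with the fat, cardiac muscle and liver scores Foxs1 (adjusted p = 0.11) and Fbn1 (0.11) did not. With the scanner software's processed signals Mthfd1 had an adjusted p of 0.066.

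Among the lower genes, those with the lowest p included both clock outputs and enzymes. Pik3ip1, an inhibitor of phosphoinositide 3-kinase, had 0.53, 0.77 and 1.07 in NRCWE-043 lungs, against 0.95, 1.30 and 1.71 in the other exposed lungs and 0.62, 1.00 and 1.42 in Control lungs. All but 1 of the 10 NRCWE-043 lungs lay below every lung of the other materials, while the Control lungs spanned both. Its difference was -0.54 ± 0.08 (SE; adjusted p = 0.00076, limma).

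Other lower genes of this rank differed by -0.42 to -0.65. Ak4, a mitochondrial adenylate kinase, differed by -0.44 ± 0.07 (adjusted p = 0.0018), and Sord, sorbitol dehydrogenase, by -0.60 ± 0.10 (adjusted p = 0.0021). Mthfd1l, of mitochondrial folate metabolism, had -0.65 by the probe used and -0.14 by another. Slc25a33, a mitochondrial carrier of pyrimidine nucleotides, had -0.57 and -0.22 by its 2 probes, and Pdxk, which makes active vitamin B6, had -0.43 by the probe used and -0.18 and -0.20 by 2 others. Which probe follows the main transcript of these genes was not tested. Lonrf1, a RING finger protein, differed by -0.43 and Tnxb, the matrix protein tenascin X, by -0.42. Lonrf1 did not pass with Cy5 alone (adjusted p = 0.18), nor did Tnxb with the fat, cardiac muscle and liver scores (0.076).

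**Figure D1:**
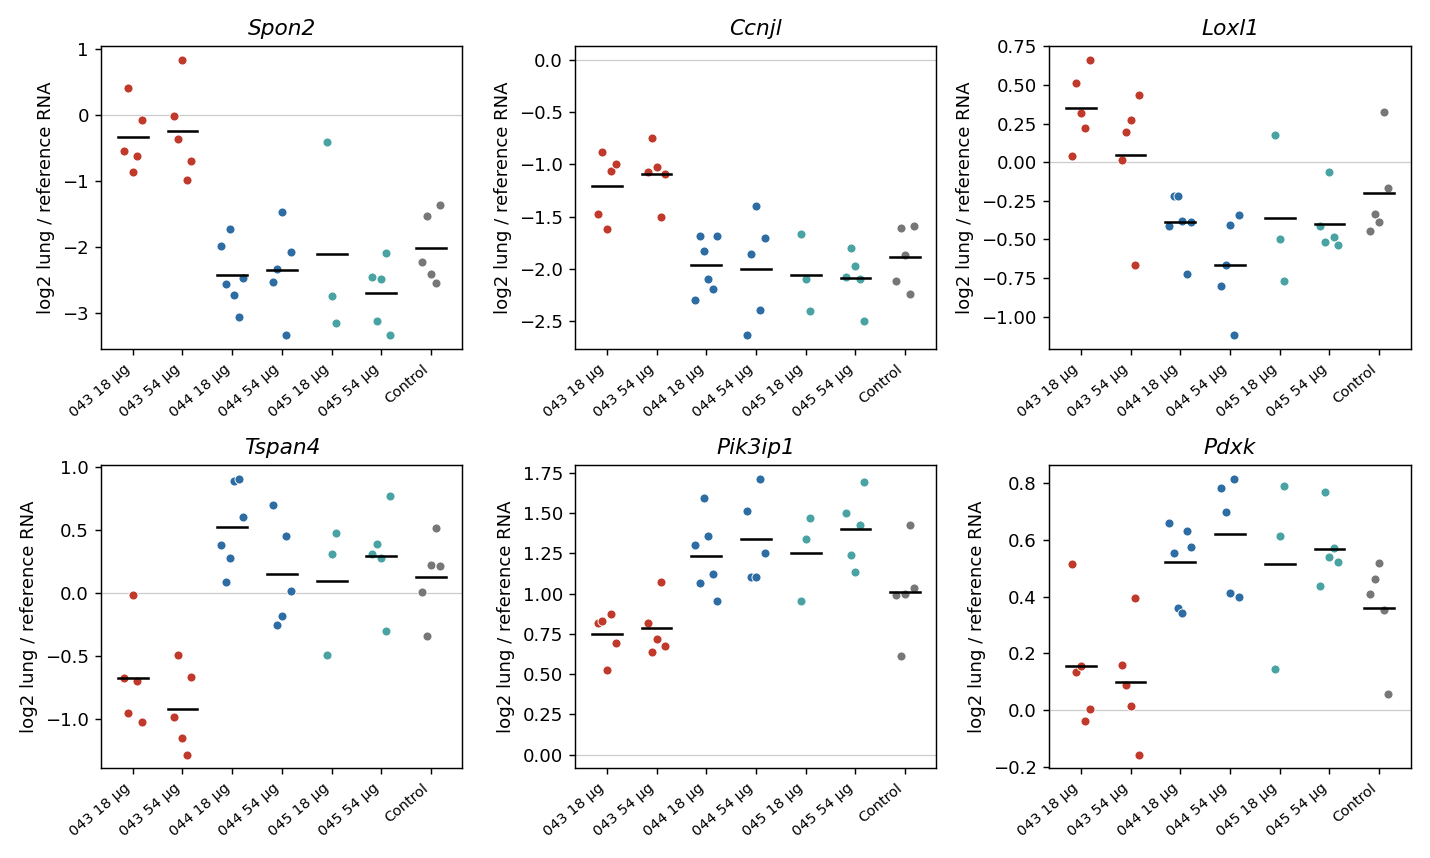
Level (log2 of lung over reference RNA) of 3 higher and 3 lower genes in every lung, by material and dose; each point is an array and each bar the group mean. All 10 NRCWE-043 lungs lie above all 5 Control lungs in Spon2 and 9 of 10 do in Ccnjl, whereas Pik3ip1 and Pdxk of Control lungs lie between or across the exposed groups.

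Among called units, those without a gene name were lower in 86 cases and higher in 5. Of 3975 units labelled only by a genomic region, 23 were lower (0.579%) and 2 higher, and of 8186 under other accessions, 63 were lower (0.770%) and 3 higher. Of the named genes 65 were lower (0.379%) and 51 higher. The median difference over all units of each kind, called or not, was -0.013 for region units, -0.010 for other accessions and -0.0043 for named genes. In 1 unit (0.00341% of all tested) the 2 sets of lungs did not overlap at all. It is a region probe at chrX:92151384-92157256 (mm9, the build of the array's labels), singled out after its values were seen. Its levels were -0.06 to 0.65 in NRCWE-043 lungs against 0.69 to 1.65 in the others (difference -0.41, adjusted p = 0.018, limma). Called region units close to it on the same chromosome were also lower, at -0.58 and -0.60. Called units therefore need not be separate loci.

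Several genes of the clock differed between the materials. Of 17 core clock genes tested, 1 was higher and 3 were lower, with a median difference of -0.14, against -0.01 over all 29315 units. Of all units 0.191% were higher and 0.515% lower. Arntl, the activator of the loop, had -0.71, 0.98 and 1.49 in NRCWE-043 lungs, against -1.69, -0.83 and 0.58 in the other exposed lungs and -1.85, -0.63 and 0.63 in Control lungs. It was higher in 6 of 10 NRCWE-043 lungs than in any lung of the other materials, by 1.46 ± 0.27 on average (SE; adjusted p = 0.0084, limma). The partners Clock (0.31 ± 0.11, adjusted p = 0.22) and Npas2 (-0.14 ± 0.59, adjusted p = 0.97) did not pass. Npas2 read 8.77 in 1 NRCWE-044 lung at 18 µg (replicate 6) and 0.98 or less in all NRCWE-043 lungs, and without that array its difference was 0.33 with an adjusted p of 0.030.

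Among the repressors of the loop Nr1d2, Per2 and Per3 were lower and the others tested did not pass. Nr1d2 had -1.48, -0.45 and 1.13 in NRCWE-043 lungs, against -0.33, 1.16 and 1.69 in the other exposed lungs and -0.20, 1.02 and 1.70 in Control lungs. In 5 of 10 NRCWE-043 lungs it lay below every other lung, Control lungs included. The difference was -1.26 ± 0.25 (SE; adjusted p = 0.013, limma), and it did not pass with the fat, cardiac muscle and liver scores (adjusted p = 0.095). Per3 differed by -0.80 ± 0.15 (adjusted p = 0.0082) and Per2 by -0.73 ± 0.16 (adjusted p = 0.028). Per2 lost its call in 6 of the 29 fits that left out 1 array, each time an NRCWE-043 array (largest adjusted p 0.066), and with the 3 tissue scores (0.14). Per1 (-0.60 ± 0.17, adjusted p = 0.096) and Cry2 (-0.32 ± 0.09, adjusted p = 0.084) did not pass. Nr1d1 had -0.53 ± 0.45 (adjusted p = 0.79), with -0.06 against NRCWE-044 and -1.14 against NRCWE-045. The repressors Bhlhe40 (-0.053), Bhlhe41 (0.055 by the probe used) and Ciart (0.041) did not pass either. Another Bhlhe41 probe gave -0.19 ± 0.08 (SE).

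Of 23 clock output genes tested, 1 was higher and 5 were lower, where 0.191% of all units were higher and 0.515% lower. The median difference of the list was -0.11. Both clock lists hold Per1, Bhlhe41 and Ciart, none of which passed. Hlf had 0.64, 1.21 and 1.55 in NRCWE-043 lungs, against 1.39, 2.04 and 2.41 in the other exposed lungs and 1.502, 1.63 and 2.25 in Control lungs. In 7 of 10 NRCWE-043 lungs Hlf lay below every lung of the other materials. Its difference was -0.87 ± 0.11 (SE; adjusted p = 0.00012, limma), and that of Tef was -0.997 ± 0.17 (adjusted p = 0.0045). Tspan4, a tetraspanin, had -1.28, -0.82 and -0.02 in NRCWE-043 lungs, against -0.49, 0.31 and 0.90 in the other exposed lungs, and differed by -1.09 ± 0.14 (adjusted p = 0.00012). Dbp varied widely from lung to lung, with -2.54, -1.54 and 1.77 in NRCWE-043 lungs against -1.58, 1.48 and 2.73 in the others. By the probe used its difference of -1.87 ± 0.51 did not pass (adjusted p = 0.083, limma). Another Dbp probe gave -2.07 ± 0.50 (SE), and whether that value would pass among all units was not tested.

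Wee1, a kinase that holds back mitosis, differed by -0.59 ± 0.12 (adjusted p = 0.015), and Cys1, a protein of the primary cilium, by -0.52 ± 0.12 (adjusted p = 0.027). Nfil3, the repressor at D-boxes, differed by 0.68 ± 0.16 (adjusted p = 0.042, limma), and 5 of 10 NRCWE-043 lungs exceeded all others. The calls of Cys1 and Nfil3 were lost in 4 and 20 of the 29 fits without 1 array (largest adjusted p 0.057 and 0.11) and with the 3 tissue scores (0.17 and 0.21). Nfil3 also had an adjusted p of 0.076 with slide as a block. Usp2 (-0.56, adjusted p = 0.062) and Cdkn1a (0.64 by the probe used and 0.11 by another, adjusted p = 0.080) did not pass.

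**Figure D2:**
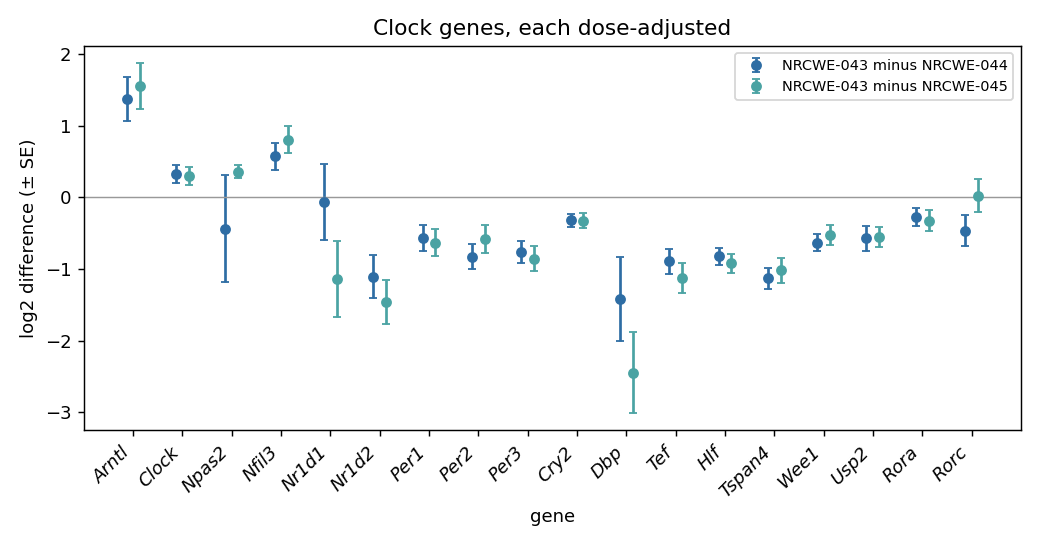
Dose-adjusted log2 difference of 18 clock genes, with its standard error, for NRCWE-043 minus NRCWE-044 and for NRCWE-043 minus NRCWE-045, which share the NRCWE-043 arrays. Arntl is above 0 in both (1.38 and 1.55) and Nr1d2, Hlf, Tef and Tspan4 are below 0 in both.

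A clock phase score was formed for each lung as the mean level of Dbp, Nr1d1, Nr1d2, Per2 and Per3 minus the level of Arntl, 6 genes in all. It averaged -0.73 ± 1.58 in NRCWE-043 lungs (SD, n = 10), 1.75 ± 1.34 in NRCWE-044 and NRCWE-045 lungs (n = 19) and 1.49 ± 1.78 in Control lungs (n = 5). It was below 0 in 6 of 10 NRCWE-043 lungs and in 4 of 19 lungs of the other materials, and no NRCWE-043 lung (0 of 10) exceeded the median of the others. The ranges overlapped: -2.37 to 1.92 in NRCWE-043 lungs, -0.91 to 3.20 in the other exposed lungs and -1.03 to 3.84 in Control lungs. The score was chosen with earlier results of these arrays known, so its difference of -2.50 is a description and was not tested. It was -2.44 at 18 µg, -2.56 at 54 µg and -2.41 with slide as a block. Within the 5 slides that held both it was -3.16, -1.25, -0.88, -4.97 and -2.94. Material accounted for 0.437 of the variance of the score that dose left.

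**Figure D3:**
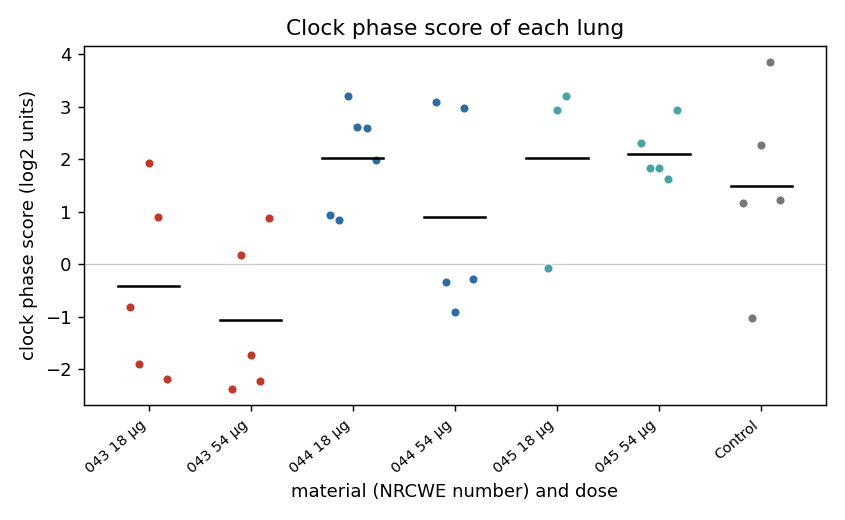
Clock phase score (log2 units, mean of 5 clock genes minus Arntl) of each lung by material and dose; points are arrays and bars group means. NRCWE-043 lungs reach from -2.37 to 1.92, and 3 of the 5 NRCWE-044 lungs at 54 µg also lie below 0.

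With the clock phase score as a covariate, no unit passed (0 of 29315, 0% called; smallest adjusted p 0.253; limma), while 2145 units had an unadjusted p under 0.05, against 2893 without the covariate. With the score and slide together again 0 passed (0% called; smallest adjusted p 0.0772), and 3499 had an unadjusted p under 0.05. The covariate shares much of its variance with material, and the median standard error of the 207 called units was 0.120 with it and 0.096 without. Their median absolute difference was 0.35 with the score and 0.44 without, and the median ratio of the 2 values was 0.61 for the 56 higher and 0.85 for the 151 lower units. Of the 207, 206 kept their sign and 177 had an unadjusted p under 0.05, while 22251 of all 29315 units kept their sign. The 207 were chosen by their difference in these same arrays, so these counts are largely set by that choice and are not separate evidence. Among units without a gene name, those at -1.61 and -1.50 had -1.70 and -1.55 with the score, whereas one at -1.34 had -0.08. How much of the material difference follows the clock and how much of the score follows the material cannot be told apart in this design.

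Named genes differed in how much of their difference remained beside the score. Spon2 had 1.38 ± 0.26 with the score, against 2.13 without it, and Ccnjl had 0.56 against 0.87. The values of Loxl1 (0.54 against 0.66), Clmp (0.50 against 0.55), Pdxk (-0.39 against -0.43) and Tnxb (-0.39 against -0.42) moved little. Hlf had -0.46, Tspan4 -0.57 and Tef -0.39, against -0.87, -1.09 and -0.997. Nfil3 had -0.05 against 0.68, Adm, a vasodilator peptide of the hypoxia list, had 0.09 against 0.81, and Ahcyl2 had 0.14 against 0.49. For the score's own genes the adjusted value is circular. Arntl (0.17), Nr1d2 (-0.11) and Per3 (-0.18) came nearer to 0, while Dbp (0.49 against -1.87) and Nr1d1 (1.36 against -0.53) changed sign. Per2, although in the score, had -0.70 with it and -0.73 without. Cys1 (-0.48 against -0.52) and Per1 (-0.58 against -0.60) likewise stayed near their values, and Wee1 had -0.46 against -0.59.

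In the fit with material (NRCWE-043 or not), dose and the score, 51 units followed the score (adjusted p under 0.05, 0.174% of those tested, limma). The other materials were pooled in this fit, so differences between them can enter the slope. Of the 207 called units 15 did (7.25%), and each of these had a slope opposite in sign to its NRCWE-043 difference, as had 50 of all 51. The score was lower in NRCWE-043 lungs, so a steep slope by itself moves the difference to the opposite sign. Neither this match of signs nor the share of 7.25% is separate evidence. The 15 include the score's own genes Arntl, Nr1d2 and Per3, and the 51 also include its genes Dbp and Nr1d1. The others included Nfil3 (slope -0.29 per unit of score), Ahcyl2 (-0.14), Adm (-0.29), Ikzf4 (-0.15), Tspan4 (0.21), Hlf (0.16), Tef (0.24) and Foxs1 (-0.15). The slope of Per2 was 0.01.

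**Figure D4:**
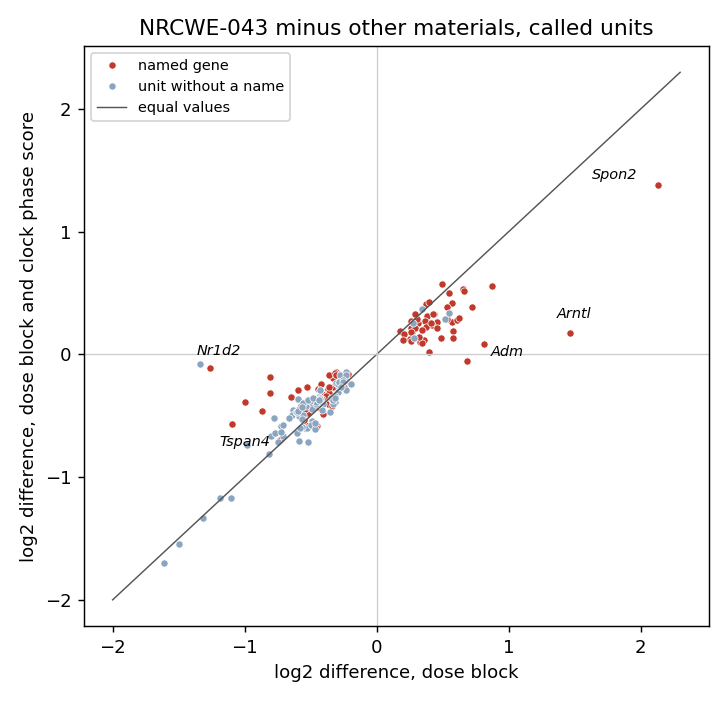
Log2 difference of the 207 called units with dose as a block (x axis) and with dose and the clock phase score (y axis); each point is a unit and the line marks equal values. Arntl, Nr1d2 and Adm lie near 0 on the y axis, whereas Spon2 keeps 1.38 of 2.13 and most lower units lie close to the line.

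The fit with dose, slide and score gave the lowest p to other genes, none of which passed (all adjusted p 0.077 or more). Beside Spon2 (1.41), Hlf (-0.44) and Tspan4 (-0.53) the lowest p among higher genes were those of the adhesion protein Nrcam (0.49), Nab2, a corepressor of Egr factors (0.37; with dose alone 0.29, and 0.00 by another probe), and Uspl1, a SUMO protease (0.31). Among lower genes they were those of Tti1, a cofactor of PI3K-related kinases (-0.27), Ivd, of leucine breakdown (-0.29), Tmem40 (-0.39), Mks1, of the ciliary base (-0.40), and Naa60, a protein acetyltransferase (-0.43). Naa60 was the one of these 8 that had also passed with dose alone, at -0.34 ± 0.07 (adjusted p = 0.012, limma). Il33, the alarmin of alveolar type 2 cells, had 0.72 in that fit (adjusted p = 0.11) and 0.29 with dose alone (adjusted p = 0.70).

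Of 24 extracellular matrix and fibrosis genes tested, 20 had a difference above 0 (13619 of all 29315 units did), with a median of 0.17. Against 0.191% higher and 0.515% lower over all units, 2 of the 24 were higher (Loxl1 and Fbn1) and 1 was lower. The lower one was Ccn2, a matricellular growth factor, at -0.46 ± 0.11 (adjusted p = 0.040, limma). Its call was lost in 15 of the 29 fits without 1 array (largest adjusted p 0.10) and with slide as a block (0.056). Eln, elastin, had 0.48 ± 0.14 (adjusted p = 0.12) and 0.11 beside the clock score. With the score 16 of the 24 were above 0 and the median was 0.10.

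Among the heat shock, unfolded protein response and immediate early lists 1 gene passed, where 0.706% of all units did. Of 14 heat shock genes 13 had a difference above 0, with a median of 0.30 (0.14 with the clock score), and 0 passed, although 10 had an unadjusted p under 0.05. The chaperone Hspa1a had 0.65 ± 0.18 (adjusted p = 0.10) and its cochaperone Dnaja1 had 0.41 ± 0.13 (adjusted p = 0.17). Of 18 genes of the unfolded protein response 14 were above 0, and Sdf2l1, of the endoplasmic reticulum, passed at 0.44 ± 0.09 (adjusted p = 0.018, limma), but not with Cy5 alone (0.086) or the tissue scores (0.095). Of 20 immediate early genes 19 were above 0, with a median of 0.16, and 0 passed. Ier3, an inhibitor of cell death, had 0.39 ± 0.13 (adjusted p = 0.18).

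In lists this small, a share of calls near the 0.706% of all units amounts to 0 or 1 gene, and the inflammatory and immune lists held no more than that. None (0) of the 17 CC chemokine genes, 16 CXC chemokine genes or 20 inflammatory cytokine and inflammasome genes tested passed, and their medians were 0.02, 0.08 and 0.02. Among 26 interferon response genes 22 were above 0 with a median of 0.14, and beside the clock score 6 were, with a median of -0.05, while 0 passed in either fit. In the type 2 immunity list Il4ra, the receptor of interleukin 4, passed at 0.36 ± 0.09 (adjusted p = 0.042, limma), with 0.07 by another probe and with the call lost in 18 of the 29 fits without 1 array (largest adjusted p 0.093). The lists of macrophage lysosome and lipid genes (24 tested, median 0.06), T cells (19, -0.07), B and plasma cells (17, -0.05) and endothelial cells (20, -0.02) had 0 called.

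Isolated members of other lists passed. Adm differed by 0.81 ± 0.18 (adjusted p = 0.027), Acot1, a thioesterase of fatty acid metabolism, by 0.61 ± 0.14 (adjusted p = 0.027), and Bbc3, a p53 target that promotes cell death, by 0.26 ± 0.06 (adjusted p = 0.037, limma). Their calls were lost in 5, 4 and 14 of the 29 fits without 1 array (largest adjusted p 0.074, 0.071 and 0.085), and those of Adm and Acot1 with slide as a block (0.056 and 0.059).

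In the liver and fat lists 1 gene passed. Of 13 liver genes 0 were above 0, with a median difference of -0.37, which was -0.05 against NRCWE-044 and -0.999 against NRCWE-045. Apoa2, an apolipoprotein, was lower by -0.81 ± 0.19 (adjusted p = 0.037, limma), a call lost in 12 of the 29 fits without 1 array (largest adjusted p 0.089). Over the 29 fits its difference ran from -0.84 to -0.68. Of 14 fat cell genes 2 were above 0, with a median of -0.45, and 0 passed, although the median NRCWE-043 lung had the higher mean level of fat genes. The arrays of the other materials named above had the highest levels of these lists, and how far they set the list medians was not tested. The part of these lists in the other differences was tested only through the fit with tissue scores.

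**Figure D5:**
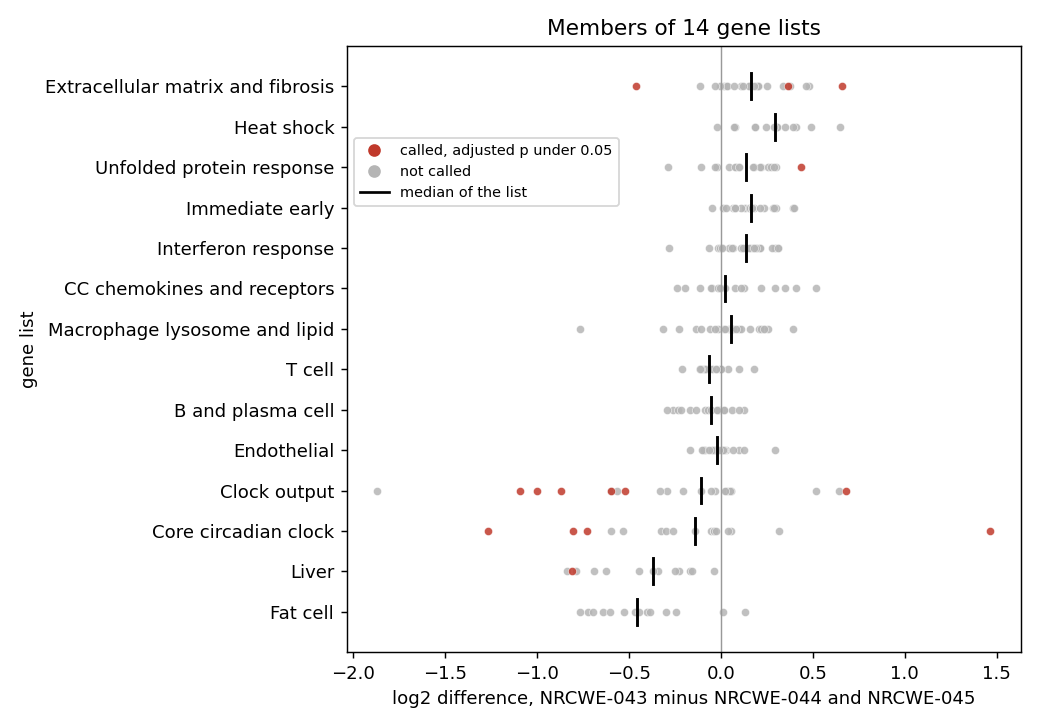
Log2 differences (NRCWE-043 minus the other 2 materials, dose-adjusted) of the tested members of 14 gene lists; each point is a gene, red where called, and the black bar is the list's median. Clock lists hold the widest spread, heat shock and matrix genes lie mostly above 0 and liver and fat genes mostly below.

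The difference did not depend on dose at a detectable level. The product of dose and material passed in 0 units (0%; limma), with 725 at an unadjusted p under 0.05, and in 1 unit with slide as a block, Tuba8, a tubulin singled out after its values were seen (-0.76, adjusted p = 0.021). The lungs at 18 µg alone gave 0 calls (0%; 2116 at an unadjusted p under 0.05), and those at 54 µg alone gave 2 (0.00682%), Spon2 and Pde4b, a cyclic AMP phosphodiesterase (0.78, adjusted p = 0.0498), which falls outside the rule for named genes. Against NRCWE-044 alone 16 units were higher and 41 lower (0.194% in all), and against NRCWE-045 alone 31 were higher and 206 lower (0.808%). Both use the same 10 NRCWE-043 arrays. For scale, NRCWE-044 against NRCWE-045 gave 2 higher and 150 lower units (0.519%), 1 of which was among the 207.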

How the data were processed

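Per the labels, lung RNA carried Cy5 and reference RNA Cy3 on every array, with no dye swap. The authors scanned the arrays with Agilent Feature Extraction, per the file headers, and the deposited scanner files hold spot and local background intensity as median pixel brightness, a processed intensity, and 0 or 1 flags, the other kind of column used. The deposited series table holds log2 ratios of Cy5 over Cy3, whose making is not given in the sources used here. Its columns correlated with the values computed here at 0.994 to 0.998.

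Background was corrected with normexp (offset 50) and ratios were normalized by loess within arrays (limma 3.58.1, R 4.3.3). Of 55681 probes, 27235 were named through RefSeq accessions. A gene with several probes was represented by the one brightest in Cy5 on average. Tested units (29315) passed the scanner's background flag for Cy5 on 3 or more arrays. Each was fitted with material and dose in limma. Slide, the clock phase score, 3 tissue scores, other normalizations, filters and subsets were alternatives.

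Named genes were the 12 per direction with the lowest p with dose, the 8 per direction with dose, slide and score, every member of the 2 clock lists and up to 4 of each other list, of 45 lists; 1 gene is not reported here. The comparison, score and lists were chosen with earlier results of these data known. Of the 45 lists, those not described had 0 called or are named by the members that passed. On simulated arrays 94% of 1.5-fold and 97% of 2-fold changes were recovered in this comparison, with 4 false among 195 calls over 29315 units. The simulated noise was normal and independent between units, without slide effects, shared variation between genes or outlying arrays. These rates check the procedure and need not hold for the real arrays.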

Additional observations from a re-analysis of the deposited data

Results flagged for a closer look

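In 68 genes (those with the lowest p and the clock genes) and the clock phase score, 1 lung stood far from the rest of its group in 17 of 345 checks of a gene in a group; chance gives about 1 in 20. Npas2 was the most extreme: NRCWE-044 18 µg replicate 6 read 8.77 and the rest of its group 0.02 to 0.31.

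In NRCWE-043 lungs at 18 µg, Il33 was 2.79 in replicate 3 (others 1.43 to 1.56), and in replicate 4 Naa60 was 0.45 (others 0.85 to 0.96) and Rora, an activator at ROR elements, 1.23 (others 0.82 to 0.85). At 54 µg, in replicate 4 the clock kinase Csnk1d was 1.06 (others 0.52 to 0.66) and the nuclear receptor Ppard -0.81 (others -0.18 to 0.00). Usp2 was 1.19 in replicate 3 (others 0.43 to 0.48) and Csnk1e -0.43 in replicate 5 (others -0.64 to -0.58).

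In NRCWE-044 lungs at 18 µg, Leo1 was 1.89 in replicate 1 (others 0.69 to 0.93), Coq10b 0.99 in replicate 2 (others 1.47 to 1.59), and in replicate 4 Tmem40 was 0.32 (others 0.53 to 0.64) and Tti1 -0.44 (others -0.19 to -0.06). Uspl1 was -0.030 in replicate 6 (others -0.26 to -0.18). In NRCWE-045 lungs at 54 µg, Ahcyl2 was 1.14 in replicate 2 (others 0.89 to 0.96), Clmp -0.79 in replicate 4 (others -1.49 to -1.30), and in replicate 3 Foxs1 was -0.24 (others -0.80 to -0.66) and Loxl1 -0.066 (others -0.53 to -0.42).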

How the results depend on the processing

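The fit with dose gave 56 higher and 151 lower units. Settings under which at least 1 of these counts moved by over 1.5 times are given as higher and lower. They were 85 and 194 with slide as a fixed block (the higher count moved), 117 and 301 with slide as a random block, 0 and 0 with the clock phase score, with or without slide, and 21 and 51 with tissue scores. Processed signals gave 32 and 75, Cy5 alone 44 and 46, and all 34 arrays 73 and 305. The 18 µg arrays gave 0 and 0, the 54 µg arrays 2 and 0, NRCWE-044 alone 16 and 41, and NRCWE-045 alone 31 and 206. A score without Arntl, chosen after seeing the data, gave 2 and 2: Spon2 (1.58), Hlf (-0.54), Nr1d1, itself in the score (1.20), and 1 unnamed unit (-0.62). Leaving out slide 1, 2, 3, 4 or 6 gave 29 and 98, 12 and 18, 29 and 102, 27 and 48, and 21 and 36. Without 1 array the counts ran from 25 to 71 and from 68 to 249, the lowest without NRCWE-043 54 µg replicate 3 (25 and 68) or 18 µg replicate 3 (46 and 68). The highest lower count came without NRCWE-043 54 µg replicate 4 (67 and 249). Cy5 alone put 51.1% of calls lower, against 72.9% in the fit with dose. The cause of these moves was not tested. The clock phase difference stayed between -2.77 and -2.31 without 1 array and between -3.03 and -2.09 under the other settings. With slide as a block 1 unit depended on dose. Nfil3 turned to -0.052 with the score and -0.045 with score and slide, and Npas2 ran from -0.23 to 0.33 without 1 array, 0.33 being without NRCWE-044 18 µg replicate 6. No paired analysis was possible because the sample numbers in the labels are unique and tie no arrays across groups. The number of arrays limits precision.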
